A study of Mus musculus with 32 samples.

Results

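Neuropeptides and activity-linked secreted factors were examined through 10 genes chosen by name, Npy, Sst, Vip, Cck, Penk, Pdyn, Tac1, Bdnf, Nptx2 and Vgf, out of 22337 genes in the tables. All 10 were measured in every sample, and all 10 passed the filter on low values in the hippocampus (an FPKM of 1 or more in 3 or more of the 12 samples). FPKM is a level scaled to transcript length and to the depth of the library. The study asked what near-infrared light applied through the skull does in mice with amyloid plaques. The samples came from male mice of 6 months on a C57BL/6J background. WT mice were littermates without the transgene. 5xFAD mice carried mutated human transgenes of familial Alzheimer's disease driven by elements of the Thy1 promoter, which is active in neurons, and received no light. 5xFAD+L mice carried the same transgenes and were illuminated through the skull under isoflurane anaesthesia, and by the study's methods control mice were anaesthetised and shaved likewise but kept under room light. No group of WT mice with light was analysed here. Each sample was the RNA of 1 dissected hippocampus or 1 meningeal preparation, with 4 hippocampi in each group, and 4 WT, 3 5xFAD and 3 5xFAD+L samples of meninges. Meningeal lymphatic endothelial cells (mLECs), sorted by flow cytometry, made up 10 further samples.

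Neuropeptides are made as longer precursors, cut to size by convertases inside dense core vesicles, and released mainly when a neuron fires in bursts. They act on G protein-coupled receptors more slowly and over longer distances than glutamate or GABA. In the hippocampus somatostatin, neuropeptide Y, vasoactive intestinal peptide and cholecystokinin mark classes of GABAergic interneurons, while dynorphin and enkephalin are found in granule cells and mossy fibres. The neurotrophin BDNF, the pentraxin NPTX2 and the granin-like protein VGF are secreted proteins whose transcription is known to follow synaptic activity.

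The control of several of these genes by cAMP and calcium acts through the cAMP response element, and the stretches that hold its letters are shown because the genes are grouped here as activity-linked. RefSeq windows on GRCm38.p6, from 250 bases before a transcript start to 50 bases from the start on, existed for 7 of the 10 genes (14 windows, of which Bdnf has 7 and Pdyn 2). Penk, Nptx2 and Vgf had no entry. Each line below gives 30 bases, 5′ to 3′ along the gene, with the match in capitals. The motifs searched on both strands were the full site TGACGTCA and the half-site TGACG, which reads CGTCA on the other strand, and a half-site inside the full site is not marked separately.
Sst, chr16:23890874-23890903, minus strand, site 41 bases before the RefSeq start: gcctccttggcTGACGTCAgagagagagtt
Vip, chr10:5639127-5639156, plus strand, site 75 bases before the start: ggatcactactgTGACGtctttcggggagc
Cck, chr9:121495724-121495753, minus strand, site 43 bases before the start: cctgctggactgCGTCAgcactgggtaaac
Tac1, chr6:7554852-7554881, plus strand, site 193 bases before the start: tccctaaaattgCGTCAtttcgaacacaat
Tac1, chr6:7555006-7555035, plus strand, site 39 bases before the start: gctctacaggctCGTCAcgcctgagataaa
Bdnf, chr2:109692389-109692418, plus strand, site 31 bases before the start of 1 of its promoters: tatgacagctcaCGTCAaggcagcgtggag
Only Sst among the 7 genes held the full site, which 588 of all 32851 windows (1.79%) also hold. The half-site, counted with or without the full one, was in 5 of the 14 windows, 1 in each of 5 genes, and in 6837 of all 32851 windows (20.8%), and the windows of Npy and Pdyn held neither. These matches describe letters and no binding was measured.

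In GRCm38 coordinates (GENCODE vM21, matched by gene identifier) the 10 genes lie on 7 chromosomes. Npy is at chr6:49822710-49829507 (plus strand), Tac1 at chr6:7554879-7565834 (plus), Sst at chr16:23889573-23890958 (minus), Vip at chr10:5639218-5647617 (plus) and Cck at chr9:121489824-121495694 (minus). The opioid precursor genes are Penk at chr4:4133531-4138819 (minus) and Pdyn at chr2:129686565-129699844 (minus). Bdnf is at chr2:109674700-109727007 (plus), and Nptx2 and Vgf are both on the plus strand of chromosome 5, at chr5:144545902-144557478 and chr5:137026392-137033351. The Sst stretch above, the second one of Tac1 and the end of its first one lie inside these gene intervals, because GENCODE lists an earlier start there. The Bdnf stretch lies inside its gene interval because it belongs to a promoter further along the gene.

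The per-length levels of the 10 genes in WT hippocampus spanned over 2 orders of magnitude. Cck had a mean of 1139 FPKM, rank 37 of 22337 genes, followed by Sst at 371 and Npy at 205 FPKM. Penk came next at 41.2 FPKM, and no 2 neighbours in this order down to Vip had overlapping ranges over the 4 samples. Vip (21.4 FPKM), Bdnf (21.1), Vgf (16.2), Tac1 (14.3), Pdyn (9.90) and Nptx2 (7.79) followed, and each of these overlapped its neighbour. In 5xFAD hippocampus Npy stood above Sst by its mean, and every neighbouring pair below Cck overlapped.

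Several hippocampal libraries stood apart, which bears on every result below. Within-group correlations of log2 CPM averaged 0.982 to 0.985 per WT library, 0.940 to 0.963 in 5xFAD and 0.974 to 0.979 in 5xFAD+L. Relative to the median of the other 3 libraries of its group, 5xFAD replicate 1 was at 9.80 for Nptx2, 5.01 for Bdnf, 4.07 for Penk, 4.02 for Npy and 7.78 for the immediate early gene Fosb. In 5xFAD replicate 3, the library with the lowest depth, Vip was at 3.10, Tac1 at 2.64 and Npy at 2.34, while the dentate granule cell genes C1ql2 and Prox1 were at 0.0565 and 0.174. In 5xFAD+L replicate 2, Sst was at 0.322 and Nptx2 at 2.6, while the thalamic marker Tcf7l2 was at 6.43. Growth hormone (Gh), listed here as a pituitary marker, reached 66.6, 546.6 and 83.1 FPKM in 5xFAD replicates 1 to 3 and 112.4 FPKM in 5xFAD+L replicate 1. Summed pituitary markers were 0.21 to 3.35 FPKM in WT, 1.16 to 589 in 5xFAD and 0.8 to 131 in 5xFAD+L. The hippocampal libraries held 13952825 to 23856476 estimated counts, the meninges 6601143 to 14708202 and the mLECs 14231415 to 24207326. Summed levels of 10 hippocampal excitatory neuron markers were 2910 to 4283 FPKM in hippocampus, and those of 7 leptomeningeal fibroblast markers 1491 to 2644 FPKM in meninges. Markers of neighbouring tissue were uneven in hippocampus, with choroid plexus sums of 36.1 to 3191 FPKM, highest in WT replicate 2 and 5xFAD replicates 1 and 2, and sums of hypothalamic peptides up to 227 FPKM (5xFAD replicate 2) against 3.0 to 5.42 FPKM in WT.

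Of the 10 genes, 8 varied most in the 5xFAD group, Sst varying most in 5xFAD+L (42.0%, against 24.6% in 5xFAD) and Pdyn in WT. Coefficients of variation over the 4 samples ran from 9.1% (Nptx2) to 30% (Pdyn) in WT and from 12.4% to 53.7% in 5xFAD+L. In 5xFAD they were 139.6% for Nptx2, 107.1% for Bdnf, 80.4% for Penk, 69.8% for Vip and 69.7% for Npy, and were lowest for Cck, at 23.4%. Replicate 1 held the highest 5xFAD value of Nptx2, Bdnf, Penk and Npy, and replicate 3 that of Vip, while Npy in replicate 3 and Penk in replicate 4 were also well above WT.

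**Figure D1:**
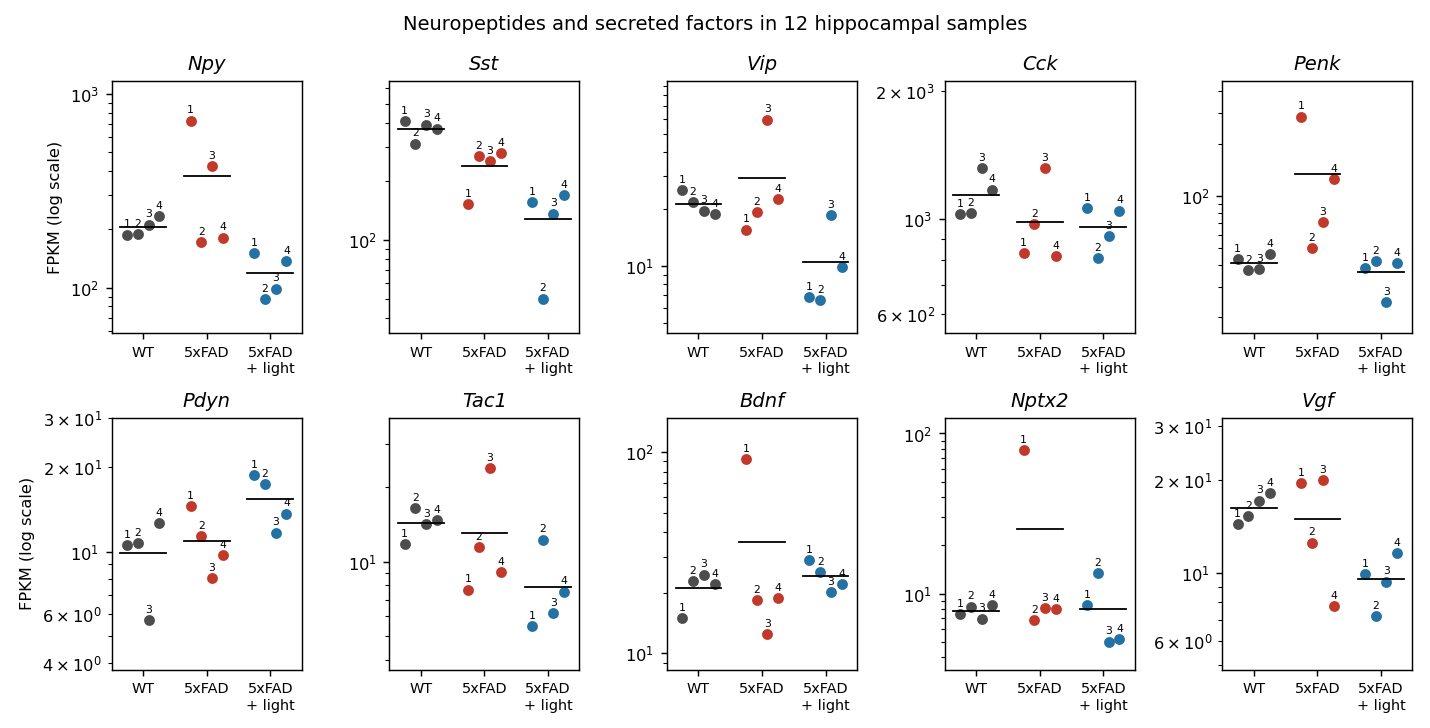
FPKM (log axis) of the 10 genes in the 12 hippocampal samples, 1 panel per gene and 1 point per sample, with the group mean as a line. The 4 Sst values of 5xFAD+L all lie below the 4 of WT, and the 4 Penk values of 5xFAD all lie above the 4 of WT, with Nptx2 and Bdnf each showing 1 high 5xFAD sample.

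Across the 3 hippocampal comparisons, which share samples and are given side by side, 1 gene rose and 1 fell. Penk was higher in 5xFAD than in WT and was the only gene of the 10 called there (edgeR's quasi-likelihood test with Benjamini-Hochberg adjustment, adjusted p below 0.05), where 8.54% of the 12981 genes tested were called. Sst was lower in 5xFAD+L than in WT and was the only one of the 10 called in that comparison, where 3.59% of genes were called. In 5xFAD+L against 5xFAD, edgeR called 0 of the 10, where 0.455% of genes were called, and DESeq2 called 4 (Npy, Sst, Vip and Penk), where it called 4.94% of genes. An unadjusted p below 0.05 was found for 6 of the 10, all lower with light, where 18.3% of genes had one. It was found for 3 of the 10 in 5xFAD against WT (24% of genes) and for 5 in 5xFAD+L against WT (16.7%). DESeq2 called 1 of the 10, again Penk, in 5xFAD against WT (13.3% of genes) and 1, again Sst, in 5xFAD+L against WT (6.73%).

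By direction alone, 9 of the 10 genes were lower in 5xFAD+L than in 5xFAD, Pdyn being the exception, with a median log2 fold change of -0.79 beside -0.02 over all genes tested. In 5xFAD against WT 6 were higher and 4 lower, with a median of 0.31 beside 0.02. Against WT, 3 were higher and 7 lower in 5xFAD+L, with a median of -0.48 beside 0.00. With 3 libraries described above set aside (5xFAD replicates 1 and 3 and 5xFAD+L replicate 2, an alternative chosen after seeing the data), 6 of the 10 were lower and 4 higher in 5xFAD+L than in 5xFAD, and 8 were lower and 2 higher in both other comparisons. The 4 samples of the groups did not overlap for 2 of the 10 in 5xFAD against WT (Penk higher, Sst lower), where 14.5% of all genes did not. They did not overlap for 2 of the 10 in 5xFAD+L against 5xFAD (Npy and Penk, both lower), with 7.63% of all genes. They did not overlap for 4 of the 10 in 5xFAD+L against WT (Npy, Sst, Vip and Vgf, all lower), with 14.9% of all genes. Setting aside those 3 libraries left 1 of the 10 called in 5xFAD against WT, 0 in 5xFAD+L against 5xFAD and 4 in 5xFAD+L against WT (Npy, Sst, Tac1 and Vgf, all lower). Over all genes the calls were then 660, 0 and 845, beside 1108, 59 and 466 with every library. Only replicates 2 and 4 of 5xFAD and replicates 1, 3 and 4 of 5xFAD+L remained in that fit. The choice rests on the levels given above, and these include values of the 10 genes themselves. Changes in the 10 genes after it therefore follow in part from the choice. Other libraries with pituitary or choroid plexus RNA were kept.

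**Figure D2:**
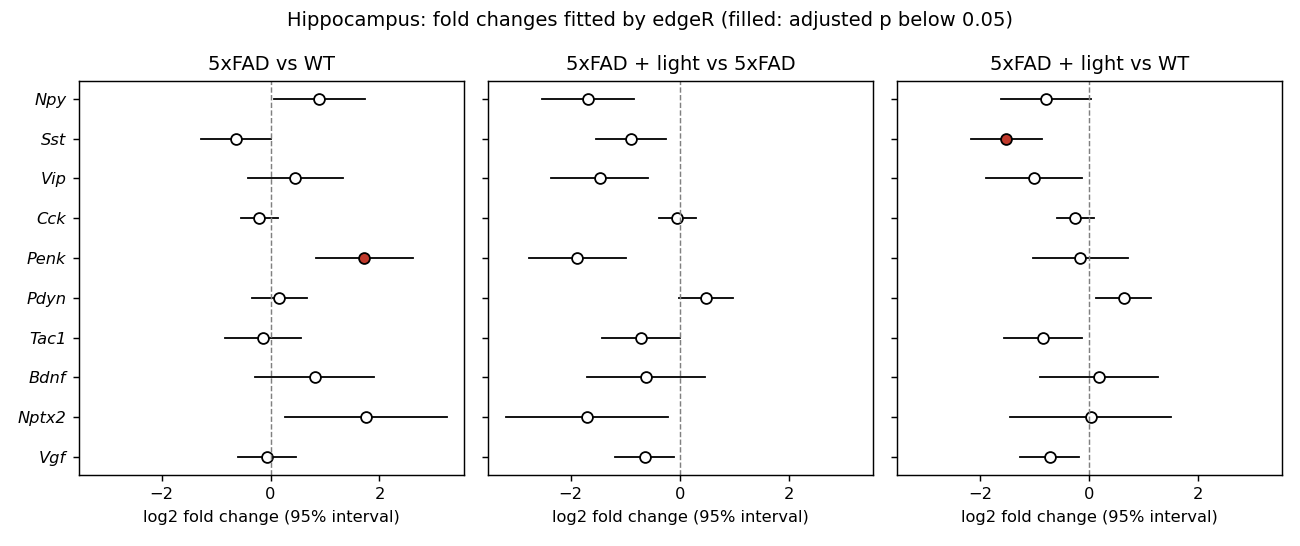
Log2 fold changes of the 10 genes in the 3 hippocampal comparisons, points with bars for the 95% confidence interval of the edgeR fit and filled points for adjusted p below 0.05. Penk in 5xFAD against WT (1.72) and Sst in 5xFAD+L against WT (-1.51) are the filled points, and 9 of 10 points lie below 0 in 5xFAD+L against 5xFAD.

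Somatostatin, made by dendrite-targeting interneurons of the stratum oriens and hilus, had its highest levels in WT. Sst was at 408, 312, 391 and 372 FPKM in WT. It was at 152, 269.96, 254 and 279.9 FPKM in 5xFAD, and at 156, 50.2, 137 and 171 FPKM in 5xFAD+L. Every WT value lay above every value of the other groups, and 5xFAD replicate 1 alone among the 5xFAD samples lay within the 5xFAD+L range. Sst fell in 5xFAD+L to 0.35 of WT (log2 fold change -1.51, SE 0.30, 95% confidence interval -2.17 to -0.86, adjusted p = 0.0107, n = 4 and 4, edgeR). Against 5xFAD it was at 0.542 (log2 -0.88, -1.53 to -0.24, adjusted p = 0.154), and 5xFAD against WT was at 0.646 (log2 -0.63, -1.27 to 0.01, adjusted p = 0.215). The fall against WT was also called without each of the 8 libraries of these groups in turn and without 5xFAD replicate 1, with adjusted p between 0.00142 and 0.0341. In dissected tissue, fewer cells of a type and less RNA per cell cannot be told apart.

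The fall of Sst went with lower levels of other interneuron genes, whose part in it was not tested. All 10 interneuron markers had a negative log2 fold change in 5xFAD+L against WT, with a median of -0.57, and 4 of them fell: Gad2 and Gad1, which make GABA, by 0.58 (adjusted p = 0.011) and 0.53 (adjusted p = 0.0138), the vesicular GABA transporter Slc32a1 by 0.82 (adjusted p = 0.0236) and the cannabinoid receptor Cnr1 by 0.66 (adjusted p = 0.0295, edgeR). Over all genes tested, 3.59% were called in that comparison. The summed FPKM of the 10 markers was 245 to 293 in WT, 182 to 296 in 5xFAD and 151 to 229 in 5xFAD+L, so that 5xFAD+L and WT did not overlap and 5xFAD spanned both. With the 3 libraries set aside, 6 of the 10 fell (median -0.61). DESeq2 on every library also called 6, where it called 6.73% of genes. Of 10 excitatory neuron markers edgeR and DESeq2 called 0 in 5xFAD+L against WT, with a median of 0.10. There 2 had an unadjusted p below 0.05 (16.7% of all genes). In 5xFAD against WT all 10 were lower (median -0.24), 3 with an unadjusted p below 0.05 (24%). In 5xFAD+L against 5xFAD 9 were higher and 1 lower (median 0.39), 5 with an unadjusted p below 0.05 (18.3%). In these 2 comparisons edgeR called 0, and DESeq2 called 1 (13.3% of genes) and 2 (4.94%). Their summed FPKM was 3860 to 4283 in WT, 2910 to 3662 in 5xFAD and 3810 to 4175 in 5xFAD+L. In 5xFAD+L against 5xFAD edgeR called 0 of the 10 interneuron markers, with 9 lower and the smallest adjusted p being 0.065 for Gad2 (log2 -0.53). There 4 had an unadjusted p below 0.05 (18.3% of all genes), and DESeq2 called 4 (4.94%). In 5xFAD against WT only Gad1 of the interneuron markers was called, where 8.54% of genes were. Gad1 fell by 0.46 (adjusted p = 0.0192, edgeR), and with the 3 libraries set aside it was not called.

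Sst per Gad1, a ratio chosen after the values were seen and given with no test, showed how the peptide stood to a marker of all GABAergic cells. The ratio of the 2 FPKM values was 4.03, 3.32, 5.07 and 4.48 in WT and 2.78, 4.58, 4.19 and 3.51 in 5xFAD. It was 2.29, 0.71, 2.34 and 3.37 in 5xFAD+L. The lowest ratio belonged to 5xFAD+L replicate 2, which had the lowest Sst and a summed level of thalamic markers of 232 FPKM, against 41.4 to 118 FPKM in the other 11 hippocampal libraries. The highest ratio of 5xFAD+L lay just above the lowest of WT.

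**Figure D3:**
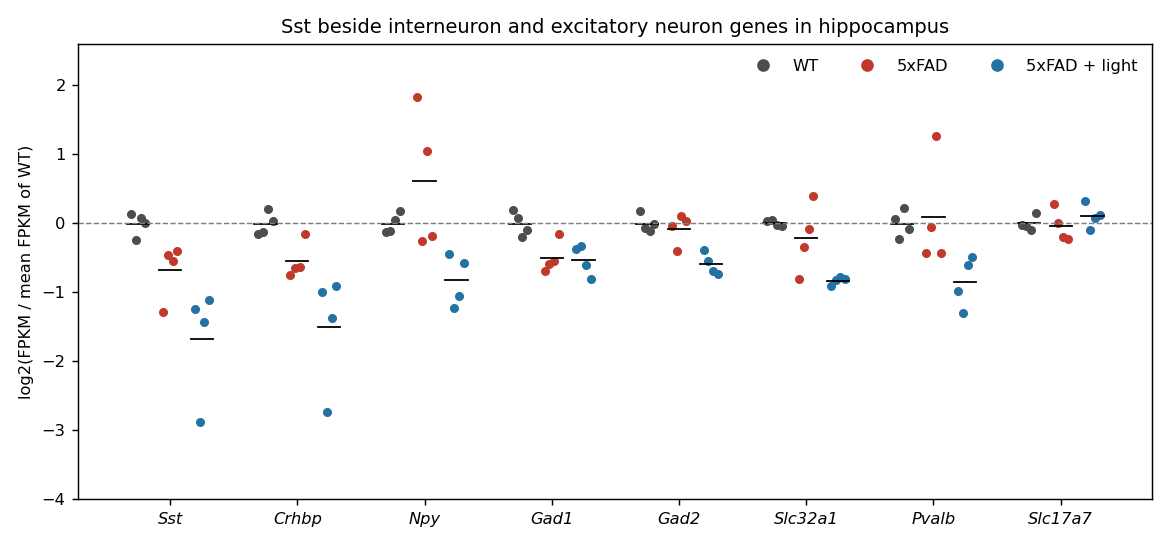
Log2 ratio of FPKM to the WT mean for Sst, Crhbp, Npy, 4 interneuron markers (Gad1, Gad2, Slc32a1, Pvalb) and the excitatory neuron marker Slc17a7, 1 point per hippocampal sample, coloured by group, with the mean of each group's points as a line. All 4 samples of 5xFAD+L lie below all 4 WT samples for each gene shown except Slc17a7, and the lowest point of both Sst and Crhbp is 5xFAD+L replicate 2 (50.2 and 3.63 FPKM).

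Neuropeptide Y, which dampens glutamate release and is carried by neurogliaform and many Sst-positive interneurons, had 2 high samples in 5xFAD. Npy was at 188, 189, 211 and 233 FPKM in WT. It was at 728, 171, 424 and 181 FPKM in 5xFAD, and at 150.5, 87.5, 99.0 and 138 FPKM in 5xFAD+L. Replicates 1 and 3 of 5xFAD lay above all WT samples and replicates 2 and 4 below them, and all 5xFAD+L values lay below all others. Npy in 5xFAD+L was at 0.312 of 5xFAD (log2 -1.68, SE 0.39, interval -2.53 to -0.84, adjusted p = 0.0717, edgeR), which missed the threshold. It was at 1.87 in 5xFAD against WT (adjusted p = 0.17) and at 0.581 in 5xFAD+L against WT (log2 -0.78, -1.61 to 0.05, adjusted p = 0.328). With the 3 libraries set aside, the log2 fold change of 5xFAD against WT was -0.23, and Npy was then lower in 5xFAD+L than in WT (log2 -0.65, adjusted p = 0.0113, edgeR). Those libraries were chosen after seeing the data, Npy included, so these results follow in part from the choice.

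Vasoactive intestinal peptide marks interneurons that inhibit other interneurons. Vip was at 25.2, 21.7, 19.7 and 18.9 FPKM in WT. It was at 15.6, 19.3, 59.6 and 22.6 FPKM in 5xFAD, and at 6.86, 6.62, 18.7 and 9.88 FPKM in 5xFAD+L. Replicate 3 of 5xFAD was the highest sample, and the highest 5xFAD+L value lay just under the lowest WT one. Vip in 5xFAD+L was at 0.363 of 5xFAD (log2 -1.46, -2.35 to -0.57, adjusted p = 0.115) and at 0.498 of WT (log2 -1.01, -1.89 to -0.12, adjusted p = 0.23, edgeR), neither passing the threshold. The difference between 5xFAD and WT was 0.46 on the log2 scale (-0.41 to 1.32, adjusted p = 0.528).

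Cholecystokinin, made by pyramidal cells and by basket cells with Cnr1, was the most abundant of the 10. Cck was at 1029.9, 1032, 1319.9 and 1173 FPKM in WT. It was at 833, 975.5, 1316 and 820.1 FPKM in 5xFAD, and at 1061, 810.1, 913 and 1048 FPKM in 5xFAD+L. The 3 groups overlapped, and the log2 intervals were -0.55 to 0.14 for 5xFAD against WT, -0.39 to 0.31 for 5xFAD+L against 5xFAD and -0.59 to 0.10 for 5xFAD+L against WT (adjusted p = 0.476, 0.918 and 0.477, edgeR).

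Proenkephalin, the precursor of the enkephalins that act on delta and mu opioid receptors, rose in 5xFAD. Penk was at 43.4, 37.4, 37.8 and 46.3 FPKM in WT. It was at 287, 50.3, 70.5 and 126 FPKM in 5xFAD, and at 38.4, 42.3, 24.4 and 41.3 FPKM in 5xFAD+L. All 5xFAD samples lay above all other samples, although replicate 2 exceeded the highest WT value by less than the range of the WT group, and 5xFAD+L overlapped WT. Penk in 5xFAD was 3.3-fold higher than in WT (log2 1.72, SE 0.41, 0.84 to 2.61, adjusted p = 0.0194, n = 4 and 4, edgeR). In 5xFAD+L it was at 0.272 of 5xFAD (log2 -1.88, SE 0.42, -2.77 to -0.99, adjusted p = 0.065) and at 0.898 of WT (log2 -0.16, -1.03 to 0.72, adjusted p = 0.885). The rise against WT was no longer called without any 1 of the 4 WT libraries (adjusted p between 0.0526 and 0.0621), nor with only the 2 groups fitted (adjusted p = 0.0557). Without 5xFAD replicate 1 it was 1.01 on the log2 scale (adjusted p = 0.032), and with the 3 libraries set aside 1.10 (adjusted p = 0.0396, edgeR). Those 3 libraries were chosen after seeing the data, Penk included.

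Striatal tissue is rich in Penk, and striatal markers were therefore set beside it. Drd1, the D1 dopamine receptor, was the 1 of the 6 striatal markers tested that rose in 5xFAD against WT (log2 2.26, adjusted p = 0.0263, edgeR), and it was not called once the 3 libraries were set aside. Drd1 was at 1.04, 1.44, 0.57 and 1.32 FPKM in WT and at 13.0, 1.33, 2.55 and 3.63 FPKM in 5xFAD, highest in replicate 1 as Penk was. Drd2, the D2 receptor carried by the striatal neurons that make enkephalin, was chosen after values were seen. It stayed under the filter's 1 FPKM in both groups, at 0.29 to 0.42 FPKM in WT and 0.30 to 0.53 FPKM in 5xFAD. The summed striatal list was 59.5 to 78.1 FPKM in WT and 106, 80.2, 103 and 68.9 FPKM in 5xFAD, and replicate 4, with the second highest Penk, lay within the WT range. Leptomeningeal fibroblast markers, whose tissue held more Penk than hippocampus did, also moved. Of 6 tested, Col1a1 and Col1a2 rose in 5xFAD against WT (median of the 6 1.07), where 8.54% of all genes were called. All 6 were lower in 5xFAD+L than in 5xFAD (median -1.45), where edgeR called 0. There 5 had an unadjusted p below 0.05 (18.3% of all genes) and DESeq2 called 4 (4.94%). Their summed FPKM was 31.1 to 63.5 in WT, 40.4, 83.7, 81.9 and 115 in 5xFAD and 15.6 to 27.1 in 5xFAD+L, the 5xFAD sample with the highest Penk being the one with the lowest sum. The part of striatal or meningeal RNA in the Penk differences was not tested.

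Prodynorphin, the kappa receptor ligand precursor of granule cells and their mossy fibres, was the only gene of the 10 with a higher fitted level in 5xFAD+L than in 5xFAD. Pdyn was at 10.5, 10.7, 5.68 and 12.7 FPKM in WT. It was at 14.5, 11.3, 8.06 and 9.72 FPKM in 5xFAD, and at 18.8, 17.4, 11.7 and 13.7 FPKM in 5xFAD+L. All 3 groups overlapped, with the 2 highest values in 5xFAD+L. The log2 fold change was 0.64 in 5xFAD+L against WT (0.14 to 1.14, adjusted p = 0.179) and 0.48 against 5xFAD (-0.02 to 0.98, adjusted p = 0.287), and it was 0.16 in 5xFAD against WT (-0.35 to 0.66, adjusted p = 0.726, edgeR).

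Tachykinin precursor 1, from which substance P and neurokinin A are cut, was low in most transgenic samples. Tac1 was at 11.8, 16.5, 14.2 and 14.7 FPKM in WT. It was at 7.70, 11.4, 23.98 and 9.09 FPKM in 5xFAD, and at 5.46, 12.3, 6.17 and 7.55 FPKM in 5xFAD+L. Replicate 3 of 5xFAD was above all WT samples and the other 3 below them, and 5xFAD+L replicate 2 was the 1 sample of its group inside the WT range. Tac1 was at 0.558 of WT in 5xFAD+L (log2 -0.84, -1.56 to -0.13, adjusted p = 0.214) and at 0.614 of 5xFAD (log2 -0.70, -1.42 to 0.01, adjusted p = 0.277, edgeR). In 5xFAD against WT it differed by -0.14 on the log2 scale (-0.84 to 0.56, adjusted p = 0.83, edgeR). With the 3 libraries set aside Tac1 was lower in 5xFAD+L than in WT (log2 -1.16, adjusted p = 0.0011, edgeR). That choice was made after seeing the data and removed 5xFAD+L replicate 2, so this result follows in part from the choice.

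Brain-derived neurotrophic factor, the TrkB ligand needed for long-lasting synaptic plasticity, showed 1 sample far above the rest. Bdnf was at 14.9, 22.9, 24.6 and 22.04 FPKM in WT. It was at 92.5, 18.5, 12.4 and 18.8 FPKM in 5xFAD, and at 29.0, 25.3, 20.2 and 22.03 FPKM in 5xFAD+L. The groups overlapped, and 5xFAD replicate 1 alone was over 3 times any other sample. Bdnf differed by 0.81 on the log2 scale in 5xFAD against WT (-0.28 to 1.89, adjusted p = 0.358), by -0.61 in 5xFAD+L against 5xFAD (-1.70 to 0.47, adjusted p = 0.535) and by 0.19 in 5xFAD+L against WT (-0.89 to 1.28, adjusted p = 0.884, edgeR). Without the 3 libraries, the first 2 of these were -0.19 and 0.38.

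Neuronal pentraxin 2, which clusters AMPA receptors at excitatory synapses onto interneurons, also had 1 sample far above the rest. Nptx2 was at 7.42, 8.29, 6.97 and 8.46 FPKM in WT. It was at 78.4, 6.84, 8.13 and 8.0 FPKM in 5xFAD, and at 8.43, 13.4, 5.01 and 5.17 FPKM in 5xFAD+L. Apart from 5xFAD replicate 1 the 5xFAD values lay between 6.84 and 8.13, beside 6.97 to 8.46 in WT. Nptx2 differed by 1.75 on the log2 scale in 5xFAD against WT (SE 0.69, 0.26 to 3.23, adjusted p = 0.14) and by -1.71 in 5xFAD+L against 5xFAD (-3.20 to -0.22, adjusted p = 0.212, edgeR), which became -0.08 in 5xFAD against WT once the 3 libraries were set aside. Between 5xFAD+L and WT the log2 interval was -1.44 to 1.51 (adjusted p = 0.985).

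VGF, a secretory protein cut into several signalling peptides, had its lowest values in 5xFAD+L and in 1 sample of 5xFAD. Vgf was at 14.4, 15.3, 17.2 and 18.2 FPKM in WT. It was at 19.6, 12.5, 20 and 7.79 FPKM in 5xFAD, and at 9.86, 7.23, 9.34 and 11.6 FPKM in 5xFAD+L. All 5xFAD+L values lay below all WT values, and 5xFAD replicate 4 lay among them. Vgf was at 0.61 of WT in 5xFAD+L (log2 -0.71, -1.25 to -0.17, adjusted p = 0.164) and at 0.64 of 5xFAD (log2 -0.64, -1.19 to -0.10, adjusted p = 0.198, edgeR). The 5xFAD and WT groups differed by -0.07 (-0.61 to 0.47, adjusted p = 0.893). With the 3 libraries set aside, the difference between 5xFAD+L and WT was -0.57 (adjusted p = 0.0444, edgeR), and that between 5xFAD+L and 5xFAD was 0.05. Those libraries were chosen after seeing the data.

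**Figure D4:**
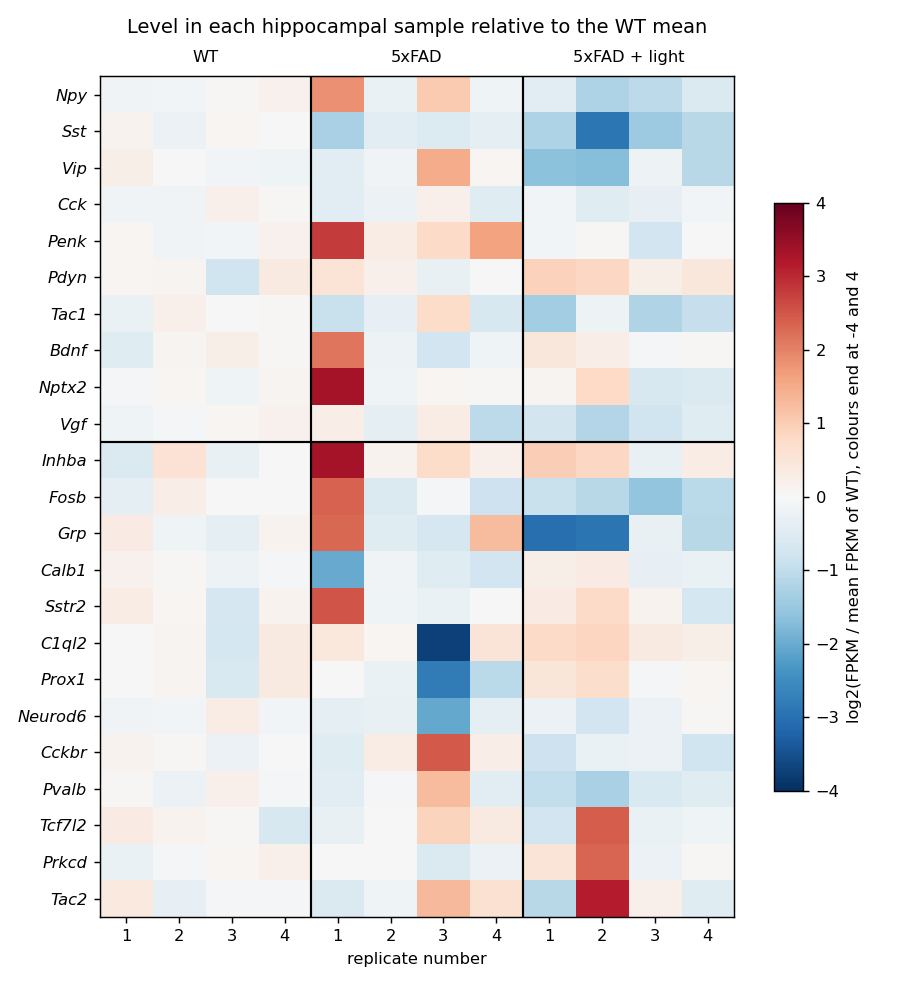
Log2 ratio of FPKM to the WT mean (colour, blue below and red above) in the 12 hippocampal samples (columns, by replicate number). The 10 genes are above the black line, and below it are genes chosen after values were seen because they set single libraries apart. The column of 5xFAD replicate 1 is high for Nptx2, Penk, Bdnf and Npy, that of replicate 3 is high for Vip and Npy, and the 4 columns of 5xFAD+L are below 0 for Sst and Npy.

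Lists of genes that make, receive or accompany these peptides gave few calls. Of 10 genes for peptide processing and dense core granules, such as the convertases and granins, edgeR called 0 in each of the 3 hippocampal comparisons. At an unadjusted p below 0.05 there were 2 in 5xFAD against WT, 5 in 5xFAD+L against 5xFAD and 3 in 5xFAD+L against WT, beside the 24%, 18.3% and 16.7% of all genes. DESeq2 called 0, 1 and 2, beside 13.3%, 4.94% and 6.73% of all genes. The nearest was the convertase Pcsk1 in 5xFAD+L against WT, at 4.27, 4.65, 3.96 and 3.46 FPKM in WT and 1.34, 1.81, 2.19 and 1.89 FPKM in 5xFAD+L, with no overlap (log2 -1.16, adjusted p = 0.0539, edgeR), and it fell once the 3 libraries were set aside. Of 14 receptors tested, 1 fell in 5xFAD against WT, where 8.54% of all genes were called. It was the somatostatin receptor Sstr4 (log2 -0.85, adjusted p = 0.0435, edgeR), which was not called with the 3 libraries set aside, when Npy2r was. Among the receptors edgeR called 0 in 5xFAD+L against 5xFAD and against WT, with 4 and 2 at an unadjusted p below 0.05 and 1 and 0 called by DESeq2. Sstr4 was at 14.3 to 19.7 FPKM in WT, 4.40 to 13.5 in 5xFAD and 10.6 to 12.1 in 5xFAD+L, with all transgenic samples under all WT samples.

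Among 12 other neuropeptide genes, edgeR called 0 in 5xFAD against WT and 0 in 5xFAD+L against 5xFAD. An unadjusted p below 0.05 was found for 1 and 6 of them, beside 24% and 18.3% of all genes. DESeq2 called 1 and 3, beside 13.3% and 4.94% of all genes. A single one fell, in 5xFAD+L against WT, where 3.59% of all genes were called. It was Crhbp, the binding protein of corticotropin-releasing hormone, which hippocampal Sst interneurons also carry (log2 -1.34, adjusted p = 0.0201, edgeR). Crhbp was at 21.7, 22.2, 27.9 and 24.8 FPKM in WT and at 12.1, 3.63, 9.33 and 12.9 FPKM in 5xFAD+L, lowest in the library with the lowest Sst. Grp, the gastrin-releasing peptide gene, ranged from 10.6 to 83.1 FPKM in 5xFAD and from 2.08 to 13.7 FPKM in 5xFAD+L (log2 -2.50, adjusted p = 0.109).

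Of 9 other activity-linked secreted factors, 2 rose in 5xFAD against WT and in 5xFAD+L against WT, where 8.54% and 3.59% of all genes were called. Both are also made by microglia. Igf1, insulin-like growth factor 1, rose by 1.44 on the log2 scale in 5xFAD (adjusted p = 0.0011) and by 1.17 in 5xFAD+L (adjusted p = 0.00828), both against WT, and Spp1, osteopontin, by 2.74 (adjusted p = 0.00932) and 2.33 (adjusted p = 0.0379, edgeR). Microglial markers rose beside them, with 5 of 5 plaque-associated markers called in both comparisons, and Igf1 was at 1.85 to 3.09 FPKM in WT, 7.90 to 15.4 in 5xFAD and 6.20 to 12.2 in 5xFAD+L. The part of microglial RNA in these 2 genes was not tested. Between 5xFAD+L and 5xFAD, edgeR called 0 of the 9, with 2 at an unadjusted p below 0.05 (18.3% of all genes). DESeq2 called 1, Ntf3, where it called 4.94% of all genes. Ntf3, neurotrophin 3, was at 20.5, 18.0, 15.5 and 13.1 FPKM with light and at 1.12, 8.36, 1.40 and 2.93 FPKM without (log2 2.24, adjusted p = 0.0528, edgeR), with no overlap.

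The immediate early genes, transcription factors and effectors that neurons switch on within minutes of firing, were called in both directions. Of 11 tested, Fos rose in 5xFAD against WT (log2 1.07, adjusted p = 0.0377) and Nr4a2 fell (log2 -0.61, adjusted p = 0.0413, edgeR), where 8.54% of all genes were called. Fos was at 10.5 to 12.8 FPKM in WT and at 30.9, 21.0, 33.2 and 9.91 FPKM in 5xFAD, with replicate 4 below the WT samples, and it was not called with the 3 libraries set aside. Nr4a2 fell in 5xFAD+L against WT by 1.23 on the log2 scale (adjusted p = 0.000858), from 16.1 to 21.3 FPKM in WT to 7.03 to 10.9 FPKM in 5xFAD+L. Between 5xFAD+L and 5xFAD, edgeR called 0 of the 11, with 6 at an unadjusted p below 0.05 (18.3% of all genes). DESeq2 called 3, where it called 4.94% of all genes. The summed level of the list was 175 to 249 FPKM in WT, 112 to 362 in 5xFAD and 153 to 209 in 5xFAD+L.

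The genes that ran most like each of the 10 over the 12 hippocampal samples, by Pearson's r of log2 CPM (counts per library total), are given as a description, since samples of 3 groups share libraries, depth and dissection. Sst ran most like Crhbp (r = 0.968, and 0.98 without 5xFAD replicate 1) and Dlx1 (0.927), an interneuron transcription factor. Vip ran most like Gramd2 (0.984), Hs3st2 (0.966) and Gm3667 (0.951). Npy ran most like Cinp (0.93), Fosb (0.908, and 0.807 without 5xFAD replicate 1) and Gm9925 (0.894). For Nptx2 they were Mapk4 (0.978), Ccnf (0.94) and the somatostatin receptor Sstr2 (0.933), the last at 0.632 without 5xFAD replicate 1. For Bdnf they were Acvr1 (0.93, and 0.606 without that library), Pcdh8 (0.914) and Srsf9 (0.914). Penk ran with Slc23a3 (0.934), Bhlhe41 (0.918) and Cacna2d2 (0.918), and Vgf with Crem (0.925), the cAMP-responsive modulator, Dusp6 (0.875) and Cinp (0.871). Tac1 ran with Bend5 (0.93), the amidating enzyme gene Pam (0.91) and Dnm3 (0.896), Pdyn with Itga11 (0.949), Cyb561d1 (0.918) and Sart3 (0.913), and Cck with Golgb1 (0.921), Ttll7 (0.906) and Rragb (0.9). Among pairs of the 10 genes, Bdnf and Nptx2 had r = 0.861 over all 12 samples and 0.128 without 5xFAD replicate 1, whereas Npy and Vgf had 0.81 and 0.82.

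The meninges differed from the hippocampus in which of these genes were present. In WT mice 9 of the 10 genes were called between the tissues, 1 higher and 8 lower in meninges, where 73% of 15132 genes were called in a joint fit of both tissues. Penk was the gene higher in meninges, 4.64-fold (log2 2.21, SE 0.41, 1.36 to 3.06, adjusted p = 6.29e-05, edgeR), at 280.2, 202, 109.8 and 193 FPKM in the 4 WT meninges, all above the highest WT hippocampus. Sst showed the widest gap, with 2.93, 0.97, 3.70 and 2.17 FPKM in WT meninges (log2 -7.34, adjusted p = 2.03e-11). Pdyn, Bdnf, Cck, Vgf, Tac1 and Vip were lower by log2 fold changes between -6.01 and -3.51, and Npy by -1.58 (adjusted p = 0.0236). Nptx2 differed by -1.41 (-2.74 to -0.08, adjusted p = 0.053), which missed the threshold.

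Within the meninges 7 of the 10 genes passed the filter, Bdnf, Pdyn and Vgf staying low, with at most 1.08, 0.44 and 1.32 FPKM. Npy was at 126, 84.4, 37.9 and 39.0 FPKM in WT, at 11.8, 31.4 and 97.0 FPKM in 5xFAD and at 9.17, 65.6 and 15.7 FPKM in 5xFAD+L, so the groups overlapped. Penk was at 188, 255, and 316 FPKM in 5xFAD and at 200.3, 139 and 101 FPKM in 5xFAD+L, both ranges overlapping that of WT. Cck was at 107, 15.3, 47.8 and 14.8 FPKM in WT, at 13.3, 20.9 and 42.7 FPKM in 5xFAD and at 6.92, 26.4 and 11.6 FPKM in 5xFAD+L. WT replicate 1 held the highest Npy, Cck, Vip and Nptx2 of the 10 samples, and also the highest sums of excitatory neuron markers (462 FPKM, against 118 to 403 in the others) and interneuron markers (195 FPKM, against 6.6 to 81.9). The part of brain tissue in these values was not tested. Choroid plexus markers summed to 15684 to 49272 FPKM in the meninges and pineal markers to 75.1 to 707 FPKM.

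None of the 7 was called in any meningeal comparison. In 5xFAD against WT, 0% of 14318 genes were called by edgeR (DESeq2 also called 0, and 4.01% had an unadjusted p below 0.05), with 2 of the 7 higher, 5 lower and a median log2 fold change of -0.79 beside 0.00 over all genes. Nptx2 was the only one of the 7 there with an unadjusted p below 0.05 (log2 -1.30, -2.46 to -0.15, adjusted p = 0.987). In 5xFAD+L against 5xFAD, 0.014% of genes were called, and of the 7 only Penk had an unadjusted p below 0.05 (log2 -0.81, -1.58 to -0.04, adjusted p = 0.379), as 12.7% of genes had. Against WT, 0.014% of genes were called in 5xFAD+L and all 7 were lower, Sst (log2 -2.16, adjusted p = 0.225) and Cck (log2 -1.63, adjusted p = 0.253) having an unadjusted p below 0.05, as 16.4% of genes had. DESeq2 called 0 of the 7 in each of the 3 comparisons, and 0.552% and 3.06% of genes in those of 5xFAD+L with 5xFAD and with WT.

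Whether the tissues differed in their response was tested as the difference of the effects in the joint fit. For the genotype effect edgeR called 0 of the 10 genes, where 1.74% of genes were called, and 2 had an unadjusted p below 0.05, as 12.8% of genes had. These were Nptx2, with an effect larger by 3.10 on the log2 scale in hippocampus (SE 0.99, 1.04 to 5.17, adjusted p = 0.132), and Penk, with 1.34 (SE 0.58, 0.13 to 2.54, adjusted p = 0.324). For the light effect edgeR called 0 of the 10, where 1.05% of genes were called, and Nptx2 alone had an unadjusted p below 0.05 (log2 -2.51, -4.63 to -0.39, adjusted p = 0.183), as 19.8% of genes had. DESeq2 called 0 of the 10 in both, where it called 3.55% and 4.84% of genes. The Penk difference between 5xFAD and WT in hippocampus (1.72) stood beside 0.39 in meninges (-0.33 to 1.10), with the difference between them not passing the adjusted threshold.

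**Figure D5:**
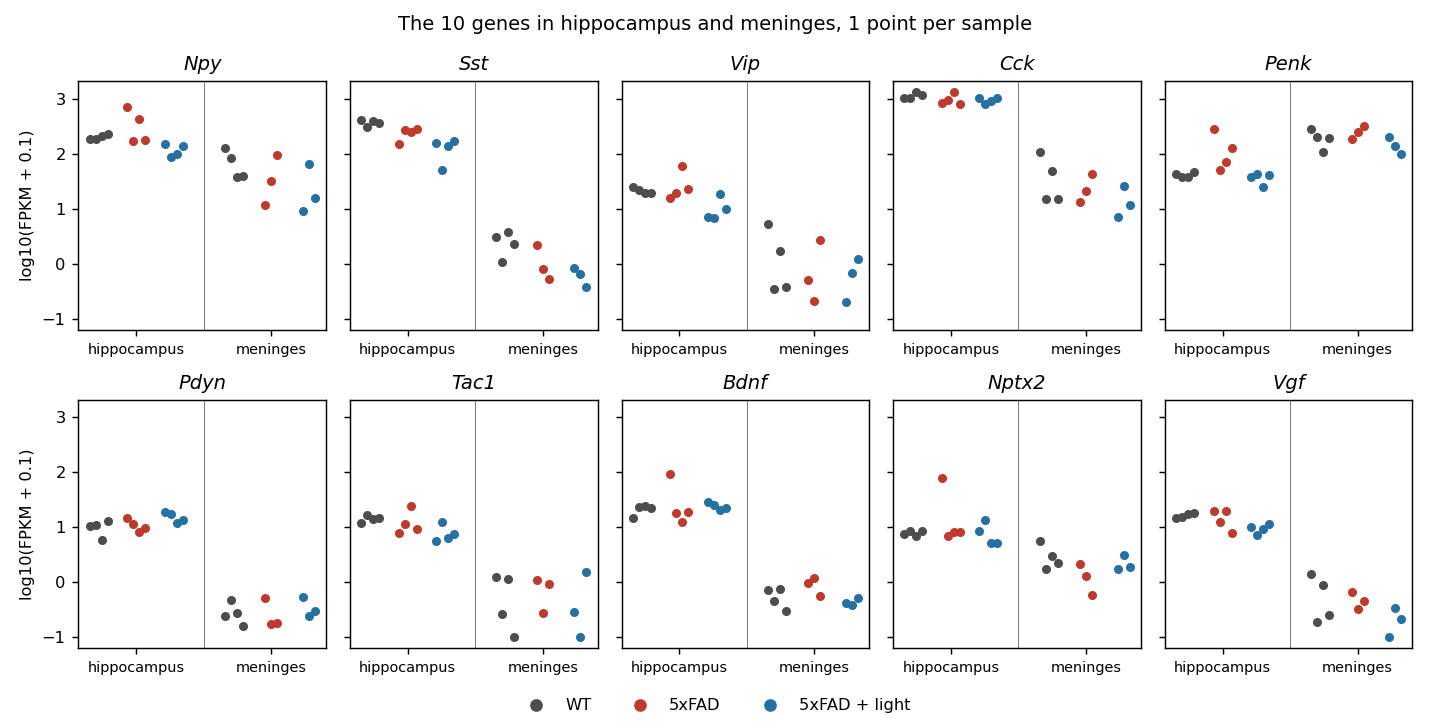
Log10 of FPKM plus the small constant given on the axis for the 10 genes in hippocampus and meninges, 1 point per sample and colours for the groups. Penk is the only one of the 10 whose WT values are all higher in meninges (109.8 to 280.2 FPKM) than in hippocampus (37.4 to 46.3 FPKM), and Sst has the widest gap, from 312 to 408 FPKM in WT hippocampus down to at most 3.70 FPKM in WT meninges.

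In sorted mLECs 8 of the 10 genes had a count of 0 in all 10 samples, which allows up to 0.124 to 0.211 CPM per sample (3 counts, counting error only). Vgf had 1 count in 1 sample of 5xFAD. Penk was the exception, at 0.19, 2880.0, 91.8 and 90.6 FPKM in WT, 416, 65.3 and 111 FPKM in 5xFAD and 321, 0.47 and 135 FPKM in 5xFAD+L. These values spread over more than 4 orders of magnitude within WT alone and the groups overlapped, so no comparison of mLECs was made. The mLEC values were normalized in a separate table and are not set against tissue levels.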

How the data were processed

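Libraries were made by the Smart-seq2 method. The authors deposited, for each gene and sample, expected counts and FPKM values from RSEM. The methods name fastp and RSEM, the submitters' notes name Trimmomatic, HISAT2, StringTie, DESeq2 and mm10, and the annotation is not given in the sources used here. The 10 genes and all gene lists were chosen with earlier results of these data known. The quasi-likelihood test of edgeR 4.0.16 (TMM scaling, R 4.3.3) was run on the expected counts after rounding, the 3 groups of a tissue together, or the 6 groups of both tissues for contrasts between tissues. Genes with an FPKM of 1 or more in 3 or more samples were kept. P-values were adjusted by Benjamini-Hochberg over all genes tested and called below 0.05. DESeq2 1.42.0, other scalings and filters and left-out libraries were alternatives. Steps were tested on simulated data. Named genes were all 10 members, from each list those called in hippocampus (at most 5 by adjusted p) or otherwise up to 3 with the smallest p, and the 3 genes most correlated with each member, of which 1 is not reported here. Sst per Gad1, Drd2, Gh and the genes describing single libraries were chosen after values were seen. No pair of replicates agreed within sampling noise. Whether samples of 1 number in both tissues are 1 mouse is not stated, and they were taken as independent.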

Additional observations from a re-analysis of the deposited data

Results flagged for a closer look

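Of the 10 genes in the groups of 4 samples, 3 sets of values in hippocampus had 1 sample far from the other 3 (Dixon's test at its 95% critical value, under which chance alone also gives some such sets). Bdnf in 5xFAD replicate 1 was at 92.5 FPKM, with the other 3 samples between 12.4 and 18.8 FPKM. Nptx2 in 5xFAD replicate 1 was at 78.4 FPKM, with the other 3 between 6.84 and 8.13 FPKM. Vip in 5xFAD replicate 3 was at 59.6 FPKM, with the other 3 between 15.6 and 22.6 FPKM. No explanation of these values was tested.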

How the results depend on the processing

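Counts of the 10 genes called moved as follows. With only the 2 groups compared, 0 were called in 5xFAD against WT and 4 in 5xFAD+L against WT. Without a filter, 2 were called in 5xFAD+L against 5xFAD (Npy, adjusted p = 0.0498, and Penk, 0.041), and DESeq2 called 4 there (Penk 0.00566, Npy 0.0117, Vip 0.0467, Sst 0.0499). With the 3 libraries set aside, a choice made after seeing the data, 4 were called in 5xFAD+L against WT. Leaving out 1 library gave 0 to 1 calls in 5xFAD against WT, 0 to 2 in 5xFAD+L against 5xFAD, the highest without 5xFAD replicate 2.

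Directions turned with the 3 libraries set aside, in log2 units, for Npy (-0.23), Vip (-0.041), Bdnf (-0.19) and Nptx2 (-0.082) in 5xFAD against WT, for Cck (0.20), Bdnf (0.38) and Vgf (0.052) in 5xFAD+L against 5xFAD and for Nptx2 (-0.30) in 5xFAD+L against WT. Leaving out 1 library gave -0.15 to 0.66 for Vip, -0.03 to 0.31 for Pdyn, -0.60 to 0.034 for Tac1, -0.35 to 1.10 for Bdnf, -0.027 to 2.07 for Nptx2 and -0.24 to 0.14 for Vgf in 5xFAD against WT. It gave -0.13 to 0.13 for Cck, -0.90 to 0.55 for Bdnf and -2.05 to 0.065 for Nptx2 in 5xFAD+L against 5xFAD, and -0.31 to 0.20 for Nptx2 in 5xFAD+L against WT. The cause was not tested.

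Counts over all genes also moved. In 5xFAD against WT 1108 genes became 1721 with DESeq2, 556 with a 2-fold minimum, 660 with the 3 libraries set aside and 637 to 1685 without 1 library. In 5xFAD+L against 5xFAD 59 became 104 without a filter, 641 with DESeq2, 1 with only the groups compared, 35 with the 2-fold minimum, 0 with the libraries set aside and 0 to 269 without 1 library. In 5xFAD+L against WT 466 became 873, 1075, 306 and 845 under DESeq2, only the groups compared, the 2-fold minimum and the libraries set aside, and 313 to 562 without 1 library. In meninges 2 genes became 79 with DESeq2 in 5xFAD+L against 5xFAD, and in 5xFAD+L against WT 16 without a filter, 438 with DESeq2 and 1 to 134 without 1 library. The genotype difference between tissues went from 263 to 537 with DESeq2 and 133 to 358 without 1 library, the light difference from 159 to 54 without a filter, 732 with DESeq2 and 10 to 258 without 1 library.

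With the replicate number as a block, Penk in 5xFAD against WT was 1.48 (adjusted p = 0.0327), Sst in 5xFAD+L against WT -1.58 (adjusted p = 0.0165) and Nptx2 there -0.076. The block gave 0 genes in both meningeal comparisons with light, 174 in the genotype difference and 19 in the light difference. Deviations of same-numbered samples from their group means correlated at -0.286 to 0.088 in hippocampus and -0.303 to 0.235 in meninges. For samples of different number the ranges were -0.286 to 0.254 and -0.322 to 0.413. These ranges overlap, so what same-numbered samples share besides the number cannot be told from them. Of 543 gene values recomputed, 497 kept their direction and side of the threshold, 6 lost a call, 17 gained one and 23 turned.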
